A study of Mus musculus with 12 samples.

Results

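The Toll-like receptors and the proteins that serve them in BV2 cells are described here through 10 genes, Lbp, Cd14, Ly96, Tlr4, Tlr2, Tlr7, Tlr9, Tlr13, Unc93b1 and Myd88. They were taken by gene name from a table of read counts for 21834 protein-coding genes, and all 10 were among the 11626 genes with enough reads to test. BV2 is an immortalized mouse microglial line. Stable, puromycin-selected BV2 lines carried a lentiviral pLKO.1 vector with either a control shRNA (shCtrl) or 1 shRNA against Anxa2 (shAnxa2), which encodes annexin A2, and each line was left untreated (CTRL) or went through OGD/R, that is, deprivation of oxygen and glucose and then reoxygenation, a culture model of ischemia and reperfusion. The sample labels give 4 h in 1% O2 without glucose and 12 h of reoxygenation, whereas the paper's methods give a longer reoxygenation. Total RNA of each of the 4 groups, shCtrl-CTRL, shCtrl-OGDR, shAnxa2-CTRL and shAnxa2-OGDR, was sequenced in 3 libraries, 12 in all, with 19521877 to 27288843 counted reads per library. The paper's methods call the 3 libraries of a group biological replicates, each holding technical replicates, of 1 stable line, and the p-values measure the spread between such replicates. With 1 shRNA and 1 stable line per arm, the knockdown cannot be told apart from other differences between the lines.

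Toll-like receptors recognise microbial molecules and molecules released from damaged cells. Bacterial lipopolysaccharide (LPS) is picked up by LBP, passed to CD14 and presented to the TLR4-MD-2 complex, in which MD-2 is the product of Ly96. TLR2 recognises lipoproteins at the cell surface, whereas TLR7, TLR9 and TLR13 recognise nucleic acids in endosomes and need the chaperone UNC93B1 to get there. All of these receptors signal through the adaptor MyD88 towards NF-κB, and microglia are the main cells of the brain that carry them.

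The shRNA names were checked on Anxa2 itself. Anxa2 stood at 164, 174 and 177 CPM, the read counts of a library relative to its TMM-scaled total, in shCtrl-CTRL and at 251, 294 and 291 CPM in shCtrl-OGDR, against 35.0, 44.4 and 41.8 CPM in shAnxa2-CTRL and 18.2, 20.1 and 20.6 CPM in shAnxa2-OGDR. The treatment names have no targeted gene to be checked on in these counts. Of 11 hypoxia targets tested, 8 rose and 1 fell with OGD/R in shCtrl cells, beside 32.4% and 31% of all genes tested, whereas 0 rose and 8 fell in shAnxa2 cells, beside 28.2% and 26.8%. Across all genes tested, the OGD/R changes of the 2 lines correlated at r = -0.796. Bnip3, a mitophagy receptor, differed between the lines in its OGD/R change by -3.87 ± 0.128, and P4ha1, a collagen prolyl hydroxylase, by 0.29 ± 0.0737 on the log2 scale. Ndrg1, a hypoxia-induced gene, averaged 10.8 and 72.2 CPM in shCtrl-CTRL and shCtrl-OGDR, and 48.8 and 8.39 CPM in shAnxa2-CTRL and shAnxa2-OGDR. Another label of these libraries puts the knockdown with the treatment and contradicts the sample names, and the names were used throughout. Every comparison rests on these names, that of OGD/R within shCtrl cells included. All 11 microglial markers were expressed, at 1873 to 2006 CPM in sum in shCtrl-CTRL, 1730.2 to 1866 CPM in shCtrl-OGDR, 1596 to 1684 CPM in shAnxa2-CTRL and 1775 to 1809 CPM in shAnxa2-OGDR. In shCtrl-CTRL the highest were Csf1r at 584, Cd68 at 385, Ptprc at 334 and Spi1 at 302 CPM. The lowest were Tmem119 at 4.83, Aif1 at 4.79, Cx3cr1 at 3.36 and P2ry12 at 2.22 CPM, so the sums say little about these. With OGD/R, 2 of the 11 microglial markers rose and 4 fell in shCtrl cells, and 4 rose and 2 fell in shAnxa2 cells. Their part in the results below was not tested. In contrast, the 4 astrocyte markers summed to at most 0.382 CPM, the 4 neuron markers to at most 0.918 CPM, the 3 fibroblast markers to at most 0.376 CPM and the 2 T and B cell markers to 0 CPM. Oligodendrocyte markers summed to at most 6.30 CPM and endothelial markers to at most 2.09 CPM. Among the former, Mbp averaged 3.83 CPM in shCtrl-CTRL, within the range of the lowest microglial markers. In bulk RNA, fewer cells that express a gene and less RNA per cell cannot be told apart.

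The levels of the 10 genes spanned a wide range in untreated shCtrl cells. Per kilobase of exon, Cd14 was highest at 170 ± 12.9 CPM per kb (SD, n = 3), followed by Unc93b1 at 102 ± 1.61 and Tlr2 at 57.4 ± 2.71 CPM per kb. Myd88 at 35.1 ± 1.82, Tlr13 at 27.8 ± 1.65 and Tlr7 at 20.4 ± 0.980 CPM per kb came next. Tlr4 and Tlr9 did not differ beyond their spread, at 11.1 ± 0.687 and 11.1 ± 1.09 CPM per kb. The lowest were Ly96 at 4.97 ± 0.632 and Lbp at 0.466 ± 0.147 CPM per kb. All other neighbours in this order stood apart by more than their SDs. The TLR4 co-receptor Cd14 was thus read far more often per kilobase than Tlr4, and Ly96, whose product binds LPS within the complex, less often.

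**Figure D1:**
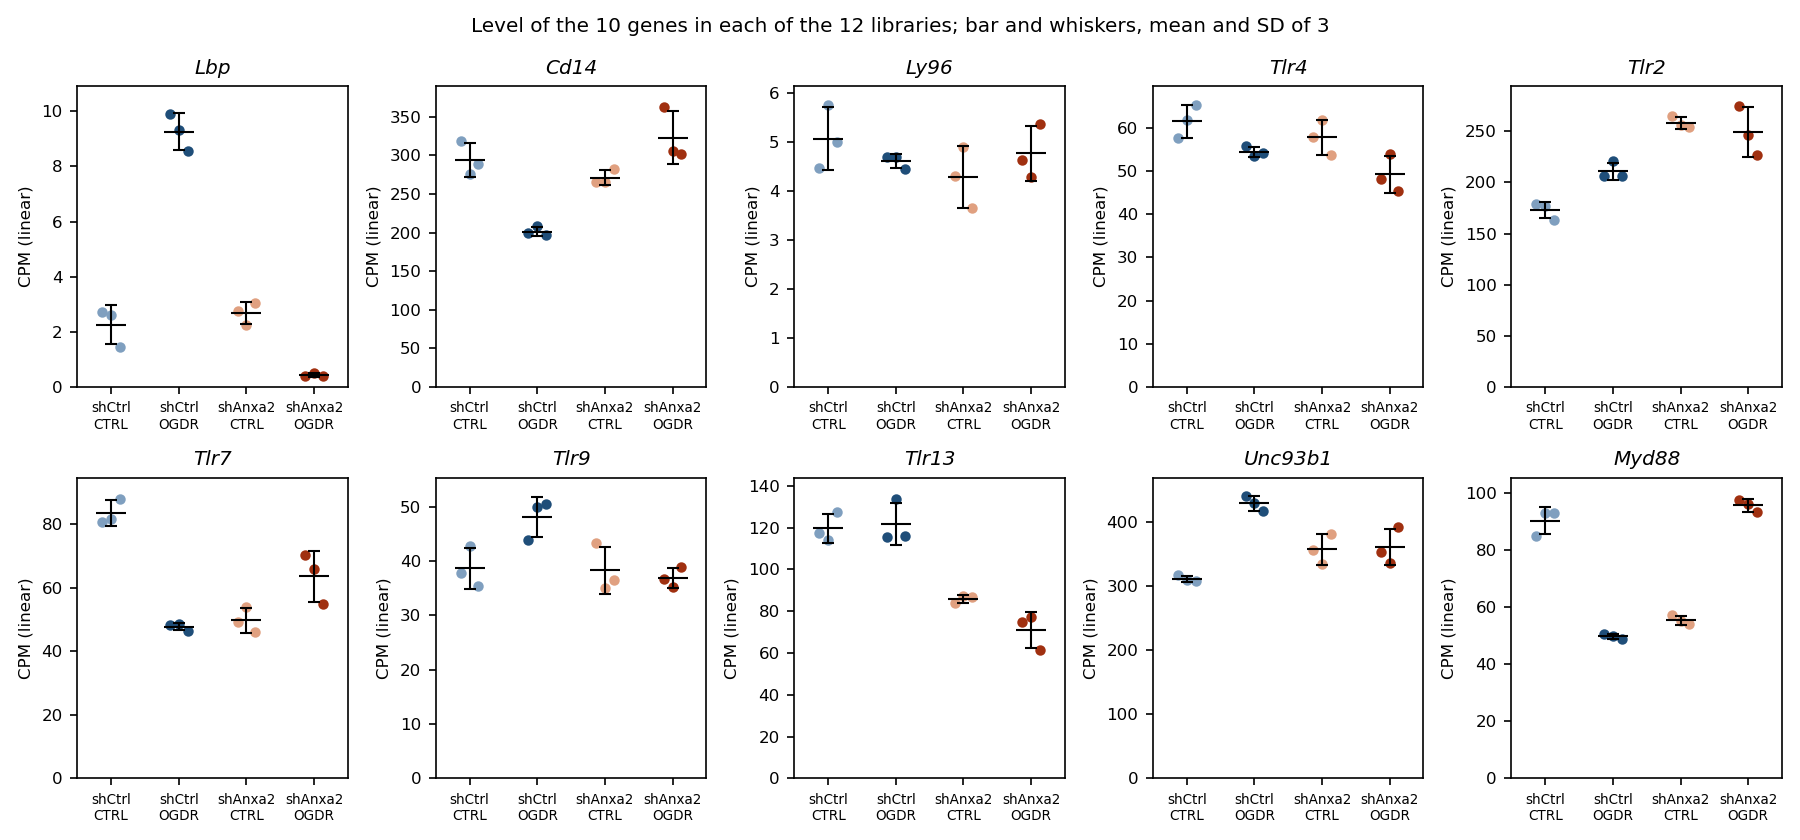
CPM on linear axes from 0 for each of the 10 genes, with 1 point per library, and a bar and whiskers for the mean and SD of the 3 libraries of a group. Lbp is highest in shCtrl-OGDR and lowest in shAnxa2-OGDR, Myd88 and Tlr7 are high in shCtrl-CTRL and shAnxa2-OGDR and low in the other groups, and Ly96 overlaps between all groups.

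Which of these genes change with OGD/R in cells that keep annexin A2 was asked first. In shCtrl cells, Lbp, Unc93b1, Tlr9 and Tlr2 rose and Myd88, Tlr7, Cd14 and Tlr4 fell, while Tlr13 and Ly96 did not pass the test. In all, 8 of 10 genes had an adjusted p under 0.05 by edgeR, beside 63.4% of all genes tested (32.4% higher and 31% lower), so this share is close to the background. Only Lbp also changed by at least 1 on the log2 scale, which 6.73% of all genes did. The median log2 fold change of the 10 was -0.06, beside 0.005 for all genes.

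The LPS-sensing genes moved apart in shCtrl cells. Lbp, chiefly known as a liver-made acute-phase protein, was counted 65, 71 and 39 times in shCtrl-CTRL libraries and 253, 244 and 167 times in shCtrl-OGDR libraries. This is 2.71, 2.60 and 1.43 CPM against 9.89, 9.31 and 8.55 CPM, with no overlap. Its log2 fold change was 2.05 ± 0.176 (SE), 4.14-fold, with an edgeR adjusted p of 3.59e-10. Cd14 went the other way, from 319, 276 and 289 CPM to 199, 208 and 196 CPM, a log2 fold change of -0.55 ± 0.0635 (edgeR adjusted p = 6.05e-08). All shCtrl-OGDR libraries lay below all shCtrl-CTRL libraries. Tlr4 read 57.7, 61.8 and 65.3 CPM untreated and 55.8, 53.5 and 54.2 CPM after OGD/R, and its log2 fold change of -0.18 ± 0.0660 had an edgeR adjusted p of 0.0224. That call was lost without shCtrl-CTRL library 3 (-0.14, edgeR adjusted p = 0.119), without shCtrl-OGDR library 2 (-0.16, 0.0707) or 3 (-0.17, 0.052), and under upper-quartile scaling (-0.15, 0.0546). Ly96, with 4.47, 5.75 and 5.00 CPM against 4.69, 4.69 and 4.46 CPM, overlapped between the groups, and the 95% interval of its log2 fold change ran from -0.44 to 0.16.

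The nucleic acid receptors and their chaperone were also not uniform. Tlr7, which senses single-stranded RNA, fell from 80.6, 81.7 and 88.0 CPM to 48.2, 48.4 and 46.5 CPM, a log2 fold change of -0.81 ± 0.0720 (edgeR adjusted p = 7.45e-10). Tlr9, the receptor for unmethylated CpG DNA, rose from 37.9, 42.8 and 35.4 CPM to 43.9, 50.03 and 50.6 CPM, with all OGD/R libraries above all untreated ones. Its log2 fold change was 0.31 ± 0.0801 (edgeR adjusted p = 0.00149). Tlr13, a receptor for bacterial ribosomal RNA, stood at 117, 114 and 128 CPM and at 116, 134 and 116 CPM, and the 95% interval of its change was -0.11 to 0.16. Unc93b1 rose from 316, 308 and 307 CPM to 440, 429 and 417 CPM, a log2 fold change of 0.46 ± 0.0559 (edgeR adjusted p = 1.11e-07). Thus the chaperone shared by these receptors was higher after OGD/R in every shCtrl library, while its clients were higher, lower or overlapping.

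Tlr2, the surface receptor for lipoproteins, rose from 178, 177 and 164 CPM to 206, 221 and 206 CPM, a log2 fold change of 0.29 ± 0.0582 (edgeR adjusted p = 0.000147). Myd88, the adaptor behind all the receptors above, fell from 84.9, 93.1 and 93.0 CPM to 50.7, 49.7 and 48.9 CPM. At -0.86 ± 0.0520 (edgeR adjusted p = 7.76e-13), this was the largest fall among the 10 genes in shCtrl cells, though within the SEs of that of Tlr7. In the table's coordinates (mm39), Myd88 on chromosome 9 from 119165000 to 119170477 overlaps Acaa1a and Slc22a14, and the library kit does not mark the strand, so reads in the shared stretch cannot be assigned with certainty. Acaa1a, a peroxisomal thiolase, had a log2 fold change of 0.28, opposite in sign to that of Myd88, and Slc22a14 averaged at most 0.0326 CPM in any group. No other of the 10 genes overlaps a listed gene. In the same build Lbp lies on chromosome 2 from 158148413 to 158174772, Tlr2 on chromosome 3 from 83743579 to 83749074, Tlr9 on chromosome 9 from 106099797 to 106104082, and Tlr13 and Tlr7 on chromosome X from 105186810 to 105204099 and from 166087925 to 166113554.

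Whether the same genes change with OGD/R when Anxa2 is knocked down was asked next. In shAnxa2 cells, Myd88, Tlr7 and Cd14 rose, Lbp, Tlr13 and Tlr4 fell, and Tlr2, Tlr9, Unc93b1 and Ly96 did not pass the test. These 6 of 10 genes compare with 55% of all genes tested (28.2% higher and 26.8% lower). Lbp alone passed 1 on the log2 scale, beside 3.54% of all genes, and the median of the 10 was -0.02, beside 0.004 for all genes.

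Lbp was counted 56, 47 and 77 times in shAnxa2-CTRL and 8, 13 and 8 times in shAnxa2-OGDR, or 2.74, 2.26 and 3.06 CPM against 0.408, 0.517 and 0.388 CPM. The log2 fold change of -2.59 ± 0.296 (edgeR adjusted p = 9.36e-08), 6.04-fold lower, had a 95% interval of -3.20 to -1.98 that reflects these low counts. Myd88 rose from 57.1, 55.0 and 54.0 CPM to 97.6, 96.3 and 93.3 CPM (0.79 ± 0.0521, edgeR adjusted p = 1.36e-11). In both genes the groups were clearly separated. Tlr7 rose from 49.1, 53.8 and 45.9 CPM to 70.1, 65.8 and 54.7 CPM (0.36 ± 0.0737, edgeR adjusted p = 0.00023), where the lowest OGD/R library lay just above the highest untreated one. Cd14 rose from 266, 265 and 282 CPM to 363, 305 and 301 CPM (0.25 ± 0.0632, edgeR adjusted p = 0.00155). Without shAnxa2-OGDR library 1, the highest, the change of Cd14 was 0.16 (edgeR adjusted p = 0.0222).

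Tlr4 fell from 58.0, 62.0 and 53.8 CPM to 48.2, 54.1 and 45.5 CPM (-0.23 ± 0.0677, edgeR adjusted p = 0.00585), with 1 OGD/R library above the lowest untreated one. Tlr13 fell from 83.8, 87.1 and 86.8 CPM to 74.7, 77.1 and 61.3 CPM (-0.27 ± 0.0709, edgeR adjusted p = 0.00219), and by 0.18 without shAnxa2-OGDR library 3, the lowest (edgeR adjusted p = 0.0261). Both falls were small and within a narrow range of levels. Tlr2 stood at 265, 257 and 254 CPM and at 275, 246 and 226 CPM, Tlr9 at 43.3, 35.1 and 36.5 CPM and at 36.7, 35.2 and 38.9 CPM, and Unc93b1 at 356, 333 and 381 CPM and at 353, 336 and 391 CPM. The 95% intervals of these changes were -0.17 to 0.07 for Tlr2, -0.22 to 0.12 for Tlr9 and -0.10 to 0.13 for Unc93b1. Ly96, at 4.30, 4.91 and 3.65 CPM against 4.64, 4.29 and 5.38 CPM, had the widest interval of these, from -0.16 to 0.48.

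**Figure D2:**
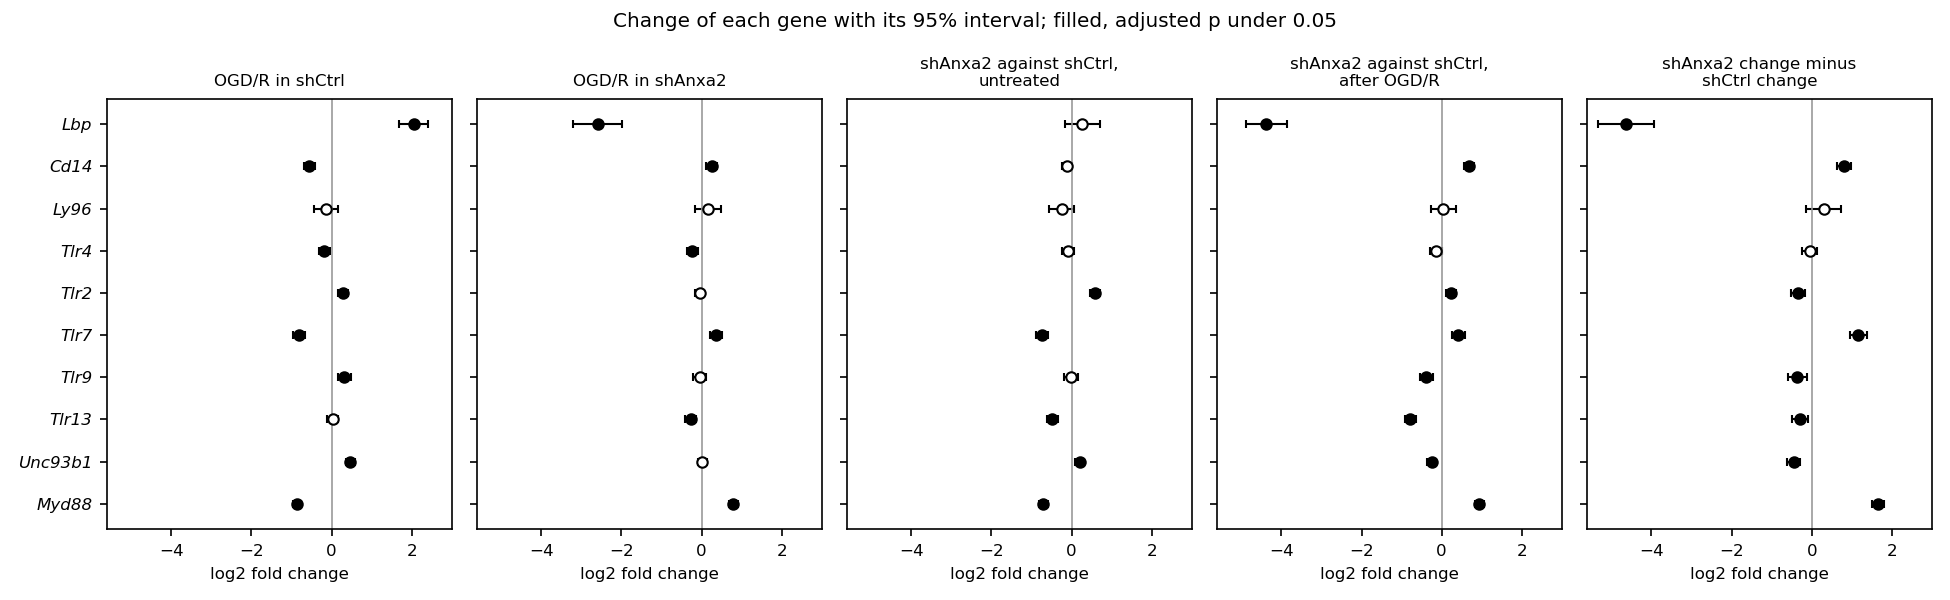
Log2 fold change of each of the 10 genes (points) with its 95% interval (whiskers) in the 5 comparisons, where filled points have an adjusted p under 0.05. Lbp has the largest change in 4 panels, Myd88, Tlr7 and Cd14 lie on opposite sides of 0 in the 2 OGD/R panels, and Tlr4 lies left of 0 in both.

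The lines were then compared between groups of the same treatment name, comparisons that share libraries with those above. Of the 11 hypoxia targets, 6 were higher and 0 lower in untreated shAnxa2 than in untreated shCtrl cells, with a median of 0.70. This stands beside 29.5% and 29.7% of all genes tested. After OGD/R, 1 was higher and 7 were lower in shAnxa2 cells, with a median of -1.06, beside 33.8% and 34.2%. The part of the hypoxia targets in these comparisons was not tested. Untreated, shAnxa2 cells held more Tlr2 and Unc93b1 and less Myd88, Tlr7 and Tlr13 than shCtrl cells, 5 of 10 genes beside 59.2% of all genes tested (29.5% higher and 29.7% lower), and 0 of the 10 passed 1 on the log2 scale, beside 5.68% of all genes. Their median was -0.11, beside 0.001 for all genes. Tlr2 was 1.49-fold higher, with a log2 fold change of 0.58 ± 0.0582 (edgeR adjusted p = 8.47e-09), and no library of one line reached the range of the other. Tlr7 (-0.75 ± 0.0722), Myd88 (-0.71 ± 0.0518) and Tlr13 (-0.48 ± 0.0688) were lower in all 3 shAnxa2 libraries than in any shCtrl library. Unc93b1 was slightly higher (0.20 ± 0.0559, edgeR adjusted p = 0.00334). The 95% intervals of the genes without a call were -0.16 to 0.70 for Lbp, -0.25 to 0.01 for Cd14, -0.23 to 0.05 for Tlr4, -0.19 to 0.15 for Tlr9 and -0.56 to 0.05 for Ly96. Cd14 passed the test without shCtrl-CTRL library 2 (-0.17, edgeR adjusted p = 0.0424).

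After OGD/R, 8 of 10 genes differed between the lines, beside 67.9% of all genes tested (33.8% higher and 34.2% lower). Myd88, Cd14, Tlr7 and Tlr2 were higher and Lbp, Tlr13, Tlr9 and Unc93b1 lower in shAnxa2 cells. Lbp was 20.7-fold lower, a log2 fold change of -4.37 ± 0.244 with a 95% interval of -4.88 to -3.87 (edgeR adjusted p = 1.13e-13), and the only one of the 10 past 1 on the log2 scale, beside 10.1% of all genes. Myd88 was 1.92-fold higher (0.94 ± 0.0523, edgeR adjusted p = 9.88e-14) and Cd14 1.6-fold higher (0.68 ± 0.0637, edgeR adjusted p = 1.16e-09). Thus the adaptor and the LPS co-receptor were higher in the same shAnxa2-OGDR libraries in which Lbp was at its lowest. Tlr7 (0.41 ± 0.0735) and Tlr2 (0.24 ± 0.0580) were higher by less, and Tlr13 (-0.78 ± 0.0699), Tlr9 (-0.38 ± 0.0815) and Unc93b1 (-0.25 ± 0.0558) were lower, with no overlap between the lines in any of these 5. Tlr4 had a log2 fold change of -0.14 ± 0.0676 and an edgeR adjusted p of 0.0631, and passed the test under 5 of the alternatives tried, one of them without shAnxa2-OGDR library 2 (-0.22, edgeR adjusted p = 0.0104). The interval of Ly96 ran from -0.27 to 0.35. The median of the 10 was -0.05.

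Whether the OGD/R change itself differs between the lines was tested as the shAnxa2 change minus the shCtrl change. It differed in 8 of 10 genes, upward in 3 and downward in 5, beside 70% of all genes tested (34.9% upward and 35.1% downward), and in 3 of them by at least 1 on the log2 scale, beside 21.5% of all genes. The largest was that of Lbp at -4.64 ± 0.338 (edgeR adjusted p = 1.16e-11). Myd88 followed at 1.65 ± 0.0736 (edgeR adjusted p = 1.37e-15), then Tlr7 at 1.16 ± 0.103 (edgeR adjusted p = 3.88e-10) and Cd14 at 0.80 ± 0.0896 (edgeR adjusted p = 2.27e-08). In these 4 genes the change was called in both lines and ran in opposite directions. Unc93b1 (-0.45 ± 0.0790), Tlr9 (-0.36 ± 0.115), Tlr2 (-0.34 ± 0.0821) and Tlr13 (-0.30 ± 0.0979) differed by less. Each of these 4 was called in only 1 of the lines. Tlr4, lower after OGD/R in both lines, had a difference of -0.05 with a 95% interval of -0.25 to 0.14, and Ly96 one of -0.14 to 0.73. By sign alone, 8 of the 10 genes (80%) and 82% of all genes tested had opposite OGD/R changes in the 2 lines. Among genes called in both lines these shares were 4 of 5 and 98.6% of 5239, and Tlr4 was the exception among the 10.

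Inside a library, ratios between members do not depend on how libraries are scaled. The pairs were picked after their values had been seen and carry no test. Tlr7 was read 2.13, 1.91 and 2.49 times as often as Tlr9 in shCtrl-CTRL, and 1.10, 0.967 and 0.919 times as often in shCtrl-OGDR. In shAnxa2-CTRL this ratio was 1.13, 1.53 and 1.26, and in shAnxa2-OGDR 1.91, 1.87 and 1.41. The ratio of the RNA receptor to the DNA receptor was thus lower in all shCtrl-OGDR than in all shCtrl-CTRL libraries, while in shAnxa2 cells the 2 groups overlapped. Myd88 to Tlr2 averaged 0.524 ± 0.0464 (SD, n = 3) and 0.236 ± 0.0102 in shCtrl-CTRL and shCtrl-OGDR, and 0.214 ± 0.00147 and 0.386 ± 0.0286 in shAnxa2-CTRL and shAnxa2-OGDR. Cd14 to Tlr4 averaged 4.80 ± 0.631 and 3.70 ± 0.177 in shCtrl cells and 4.70 ± 0.491 and 6.60 ± 0.947 in shAnxa2 cells. Tlr7 to Unc93b1 averaged 0.269 ± 0.0162 and 0.111 ± 0.00166 in shCtrl cells and 0.140 ± 0.0206 and 0.178 ± 0.0332 in shAnxa2 cells.

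**Figure D3:**
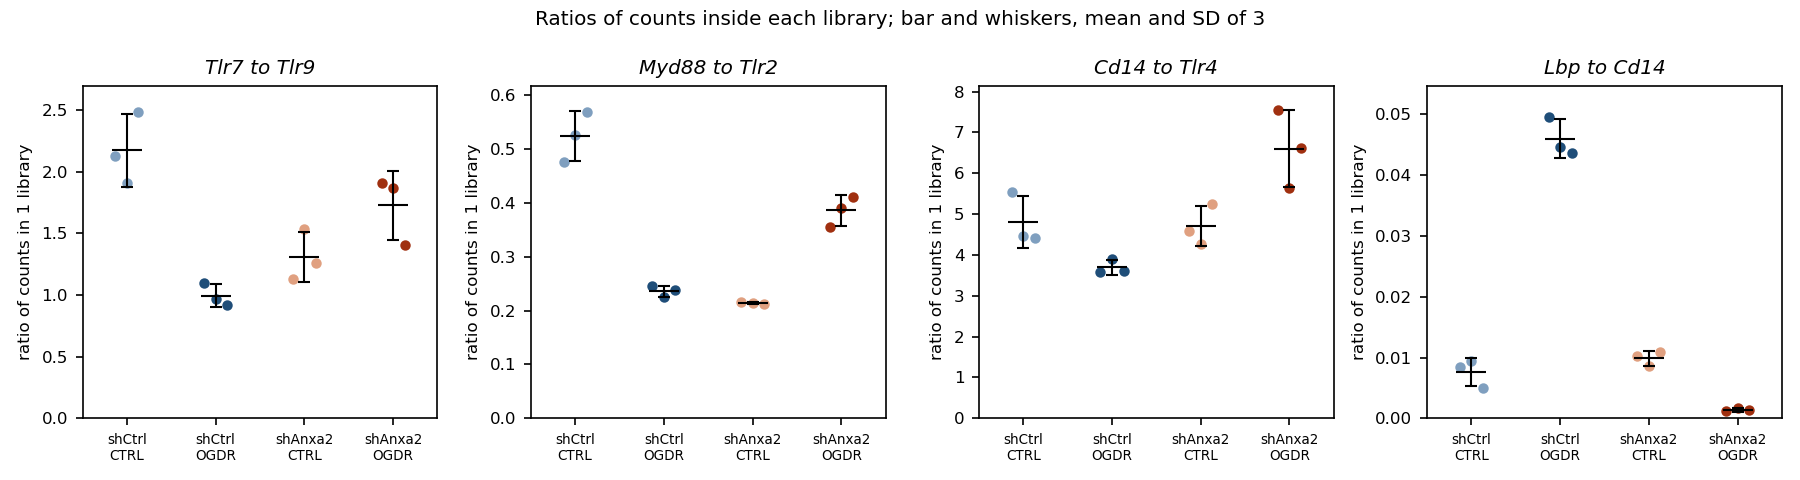
Ratio of the counts of 2 genes inside each library on linear axes from 0, with 1 point per library and the mean and SD of the 3 libraries of a group. Tlr7 to Tlr9 and Myd88 to Tlr2 are highest in shCtrl-CTRL, Cd14 to Tlr4 is highest in shAnxa2-OGDR, and Lbp to Cd14 stands near 0.046 in shCtrl-OGDR and near 0.0014 in shAnxa2-OGDR.

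The promoters of 4 of the 10 genes were read as the 250 bases before the start in RefSeq (GRCm38.p6), for Tlr2 and Tlr9, which rose in shCtrl cells, Tlr13, which overlapped, and Myd88, which fell there and rose in shAnxa2 cells. Tlr4, Tlr7, Cd14, Ly96, Lbp and Unc93b1 are named only. Capitals mark matches, on either strand, to an NF-κB motif, the interferon response letters (GAAA, any 2 bases, GAAA), the AP-1 letters TGANTCA, the ETS letters AGGAAGT and the hypoxia response core ACGTG, and each sequence is written 5′ to 3′ on the strand of its gene.
Tlr2 (chr3:83841609-83841858, minus strand): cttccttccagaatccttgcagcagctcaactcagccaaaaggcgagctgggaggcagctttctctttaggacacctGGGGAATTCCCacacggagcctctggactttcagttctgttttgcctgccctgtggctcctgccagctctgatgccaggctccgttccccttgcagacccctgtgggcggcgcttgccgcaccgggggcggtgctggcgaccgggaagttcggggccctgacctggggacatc
Tlr9 (chr9:106222348-106222597, plus strand): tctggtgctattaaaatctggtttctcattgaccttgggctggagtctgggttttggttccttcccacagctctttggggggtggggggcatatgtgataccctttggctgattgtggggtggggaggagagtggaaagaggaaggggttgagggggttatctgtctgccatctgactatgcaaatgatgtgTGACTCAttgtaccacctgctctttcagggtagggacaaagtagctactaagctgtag
Tlr13 (chrX:106143025-106143274, plus strand): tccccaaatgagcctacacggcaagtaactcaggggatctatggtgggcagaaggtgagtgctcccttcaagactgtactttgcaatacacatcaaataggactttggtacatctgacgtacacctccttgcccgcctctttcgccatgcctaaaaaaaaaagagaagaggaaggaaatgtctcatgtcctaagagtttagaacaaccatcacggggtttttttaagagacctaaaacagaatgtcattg
Myd88 (chr9:119340019-119340268, minus strand): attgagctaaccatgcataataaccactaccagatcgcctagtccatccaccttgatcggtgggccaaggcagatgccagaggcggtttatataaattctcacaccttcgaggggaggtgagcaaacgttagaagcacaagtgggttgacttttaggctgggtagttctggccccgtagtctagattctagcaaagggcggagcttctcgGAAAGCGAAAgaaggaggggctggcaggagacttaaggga

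The Tlr2 promoter holds 2 overlapping NF-κB matches that begin 173 and 172 bases before the start. The Tlr9 promoter holds an AP-1 match 58 bases before the start, and the Myd88 promoter an interferon response match 40 bases before it. The Tlr13 stretch holds none of these letters. Among 32851 promoters of the same length, 7.3% hold the NF-κB motif, 3.0% the interferon response letters, 6.7% the AP-1 letters, 7.7% the ETS letters and 16.6% the hypoxia core, and none of the 4 promoters shown holds the last 2. A match describes letters and not binding.

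The other genes of the pathway were read as lists, whose calls are set against those over all genes tested, of which 32.4% rose and 31% fell with OGD/R in shCtrl cells, 28.2% rose and 26.8% fell in shAnxa2 cells, and 34.9% differed upward and 35.1% downward between the lines. Of the other Toll-like receptors, 4 of 7 were tested, Tlr5, Tlr11 and Tlr12 being below the filter. With OGD/R, 2 of the 4 fell in shCtrl cells and none was called in shAnxa2 cells, and the difference between the lines was called upward in 2. These were Tlr3, the double-stranded RNA receptor that signals without MyD88, at 0.68 ± 0.237 (edgeR adjusted p = 0.0133), and Tlr1, a partner of TLR2, at 0.51 ± 0.113 (edgeR adjusted p = 0.00031). Tlr1 averaged 36.2 and 26.9 CPM in shCtrl-CTRL and shCtrl-OGDR, and 24.8 and 26.3 CPM in the shAnxa2 groups. Of 12 receptor partners and endosomal genes, 2 rose and 4 fell in shCtrl cells, 4 rose and 2 fell in shAnxa2 cells, and 7 differed upward and 2 downward. Cd36, a scavenger receptor that works with TLR2, differed by 1.08 ± 0.136 and Rftn1, which encodes raftlin, by 0.90 ± 0.107. Slc15a3, an endosomal transporter, differed by -0.72 ± 0.0708 and Lgmn, a protease of the endosome, by -0.68 ± 0.0622.

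Downstream of the adaptor, the MyD88 arm had 9 of 19 tested genes higher and 4 lower with OGD/R in shCtrl cells, 4 higher and 8 lower in shAnxa2 cells, and a difference upward in 5 and downward in 9. The shares of all genes called, in either direction, were 63.4% in shCtrl cells, 55% in shAnxa2 cells and 70% for the difference, so the calls in this list were near the background. The kinase Irak2 averaged 69.1 and 123 CPM in shCtrl-CTRL and shCtrl-OGDR, and 135 and 85.2 CPM in shAnxa2-CTRL and shAnxa2-OGDR. It thus ran opposite to Myd88 in both lines, with a difference of -1.50 ± 0.0689 (edgeR adjusted p = 2.57e-15). The ubiquitin ligase Peli2 differed by -1.74 ± 0.148, and the transcription factor Irf5 and the ubiquitin-conjugating enzyme Ube2n by 0.36 ± 0.0701 and 0.36 ± 0.0853. Of 7 genes of the TRIF arm, the route that bypasses MyD88, 3 rose and 3 fell in shCtrl cells, 1 rose and 4 fell in shAnxa2 cells, and 2 differed upward and 3 downward. The kinase Ikbke differed by -2.26 ± 0.0756 and the adaptor Ticam2 by -1.36 ± 0.137, whereas Traf3 differed by 0.93 ± 0.0799 and Irf3 by 0.32 ± 0.104.

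Brakes on Toll-like receptor signalling were 7 higher and 2 lower of 12 tested with OGD/R in shCtrl cells, with a median of 0.32 beside 0.005 for all genes, of which 32.4% were higher and 31% lower. In shAnxa2 cells 3 rose and 8 fell, beside 28.2% and 26.8% of all genes, with a median of -0.20 beside 0.004. The difference was upward in 2 and downward in 9, beside 34.9% and 35.1% of all genes. Irak3, a kinase-like inhibitor of the MyD88 route, averaged 21.8 and 57.1 CPM in shCtrl-CTRL and shCtrl-OGDR and 52.2 and 27.6 CPM in the shAnxa2 groups, a difference of -2.31 ± 0.109 (edgeR adjusted p = 3.71e-15). Tnfaip3, which encodes A20, differed by -1.54 ± 0.0775, and Rnf216 and Inpp5d by 0.41 ± 0.0697 and 0.38 ± 0.0640. Irak3 and Tnfaip3 were thus at their lowest in shCtrl-CTRL. Of 5 other LPS-handling genes tested (Bpi and Gbp5 were below the filter), 2 rose and 1 fell in shCtrl cells, 1 rose and 2 fell in shAnxa2 cells, and 1 differed upward and 3 downward. Aoah, the enzyme that deacylates LPS, averaged 13.6 and 60.4 CPM in shCtrl-CTRL and shCtrl-OGDR and 54.9 and 25.0 CPM in the shAnxa2 groups, a difference of -3.28 ± 0.109. Casp4, the intracellular LPS sensor, differed by -1.99 ± 0.131, and the scavenger receptor Msr1 by 1.03 ± 0.216. Msr1 was nevertheless lower in shAnxa2 cells both untreated and after OGD/R. It averaged 12.4 and 8.80 CPM in shCtrl-CTRL and shCtrl-OGDR, and 2.83 and 4.08 CPM in shAnxa2-CTRL and shAnxa2-OGDR.

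**Figure D4:**
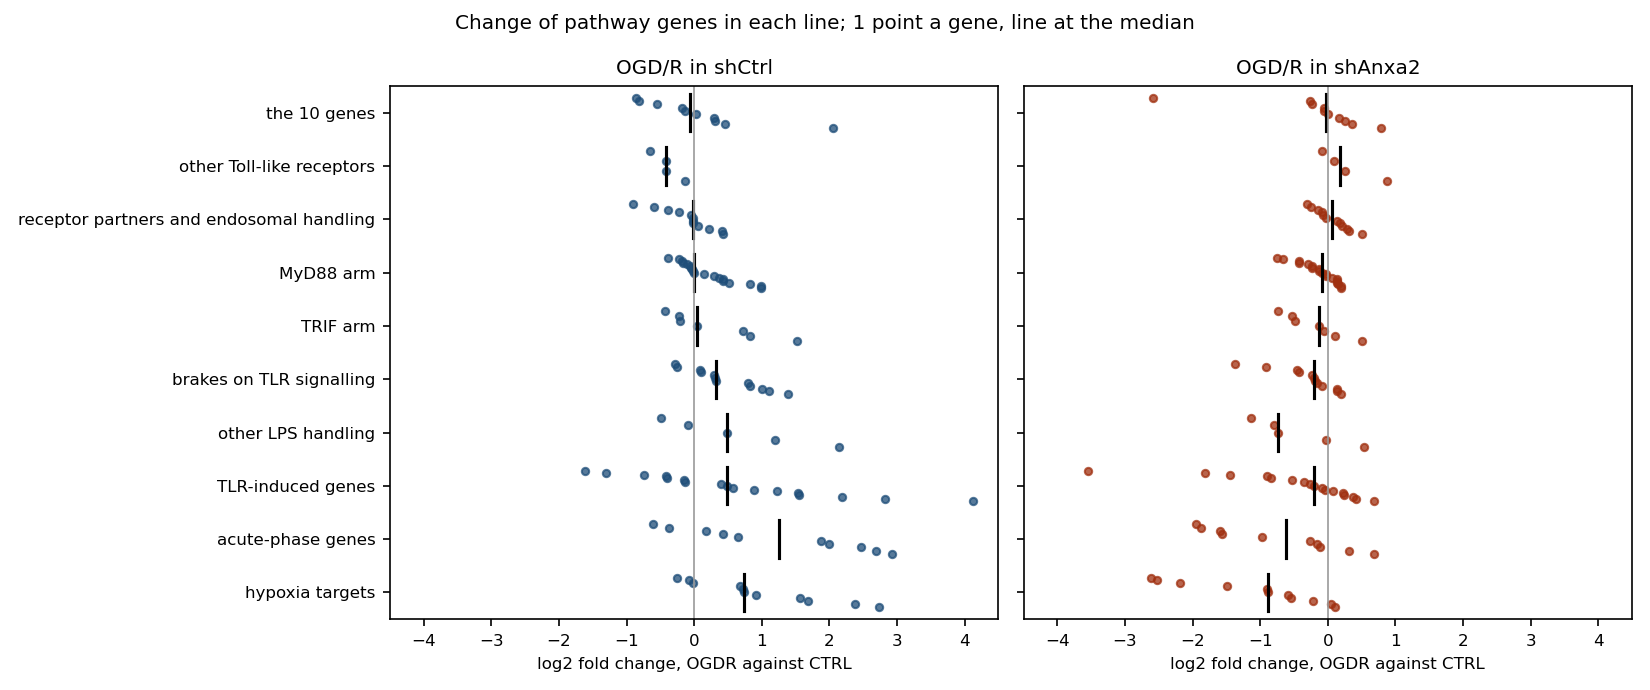
Log2 fold change with OGD/R (x axis) of each tested gene of the lists in shCtrl cells (left, blue) and shAnxa2 cells (right, red), with a black line at the median of a list. The 10 genes have medians of -0.06 and -0.02. Medians lie above 0 on the left and below 0 on the right for the TRIF arm, the brakes and the other LPS-handling genes. The same holds for the TLR-induced genes, the acute-phase genes and the hypoxia targets.

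Of 22 genes known to be induced through these receptors, 17 were tested, Il6, Il12b, Il10, Cxcl1 and Ifnb1 being below the filter. With OGD/R, 9 rose and 5 fell in shCtrl cells (32.4% and 31% of all genes), 2 rose and 8 fell in shAnxa2 cells (28.2% and 26.8% of all genes), and 3 differed upward and 9 downward (34.9% and 35.1% of all genes). Untreated shAnxa2 cells held more of 14 of the 17 than untreated shCtrl cells and less of 0, beside 29.5% and 29.7% of all genes, with a median of 1.00 beside 0.001 for all genes. Nos2, inducible nitric oxide synthase, averaged 3.10 and 54.7 CPM in shCtrl-CTRL and shCtrl-OGDR and 87.6 and 7.43 CPM in shAnxa2-CTRL and shAnxa2-OGDR, a difference of -7.68 ± 0.172 (edgeR adjusted p = 1.84e-20). Acod1, the itaconate-producing enzyme, differed by -4.28 ± 0.111. Ccl2 went the other way, at 117 and 38.4 CPM in shCtrl cells and 122 and 163 CPM in shAnxa2 cells, a difference of 2.03 ± 0.141, as did Il1b at 1.53 ± 0.323. The list was therefore not of one direction.

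Lbp belongs to the acute-phase genes by its textbook role, so a list of 15 other genes was read beside it. That list holds both acute-phase products and regulators of that response, such as transcription factors and cytokine receptor chains. Of the 15, 10 were tested, and the counts below cover both kinds. With OGD/R, 8 rose and 2 fell in shCtrl cells, beside 32.4% and 31% of all genes, and the median was 1.26 beside 0.005. In shAnxa2 cells 2 rose and 6 fell, beside 28.2% and 26.8% of all genes, and the median was -0.62 beside 0.004. The difference was upward in 2 and downward in 8, beside 34.9% and 35.1% of all genes. Lcn2, which encodes an iron-siderophore binding protein, averaged 1.42 and 10.8 CPM in shCtrl-CTRL and shCtrl-OGDR and 16.6 and 4.25 CPM in the shAnxa2 groups, a difference of -4.88 ± 0.258. Cp, ceruloplasmin, differed by -4.56 ± 0.205, beside -4.64 for Lbp. Unlike Lbp, both were also called higher in untreated shAnxa2 than in untreated shCtrl cells, by 3.54 ± 0.191 and 2.50 ± 0.149. The 2 that differed upward, Il6ra (1.29 ± 0.0874) and Il6st (0.68 ± 0.0856), were also the 2 that fell in shCtrl cells. They encode the 2 chains of the IL-6 receptor.

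The genes whose log2(CPM + 0.1) ran most like that of each member over the 12 libraries are given as a description, since the libraries share only 4 groups. Among 9515 other genes of at least 5 CPM, Myd88 was closest to Trim27 (Pearson r = 0.994), Srrt (0.994) and Hspa8 (0.993). Tlr7 was closest to Kif20b (0.988), Kpna4 (0.985) and Hspa4 (0.983), and Tlr2 to Nfkbia (0.974), Naxd (0.963) and Parp8 (0.960). For Tlr13 they were Capza1 (0.979), Mndal (0.971) and Eid1 (0.969), for Cd14 Hnrnph1 (0.976), Bin1 (0.976) and Sptlc2 (0.972), and for Unc93b1 Atp13a2 (0.969), Npc2 (0.964) and Litaf (0.962). Tlr9 had Bri3 (0.938), Mboat7 (0.915) and Nucb1 (0.910), and Tlr4 had Ect2 (0.935), Pank3 (0.898) and Depdc1a (0.895). Among 9516 genes, Lbp was closest to Arid3a (0.984), Cdk19 (0.981) and Eps8 (0.980), and Ly96, the member with no call, only to Cmip (0.789), Prdm10 (0.788) and Tubgcp6 (0.779). Among the members themselves, Tlr7 and Myd88 (0.84) and Cd14 and Myd88 (0.81) ran together, and Cd14 and Lbp (-0.87), Tlr7 and Unc93b1 (-0.84) and Myd88 and Lbp (-0.83) ran apart.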

How the data were processed

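RNA of 12 BV2 libraries was grouped by sample name. Read counts per gene, without normalization, were deposited by the authors (the submitters' processing notes name mm39 and HISAT2 2.0.4). The methods in the paper describe hippocampal RNA-seq and name other tools. The 12 columns of size-factor-normalized values in the same table were not used. In edgeR 4.0.16 (R 4.3.3), the 11626 genes that reached 0.5 CPM in 3 or more libraries were TMM-scaled and fitted in 1 quasi-likelihood model over the 12 libraries, with Benjamini-Hochberg adjustment over all genes and calls at an adjusted p under 0.05. SE is the log2 fold change over the square root of F. Replicate counts differed by more than counting error (chi-square per gene 3.89 to 12.7). On simulated counts for 11626 genes, 200 genes were changed in the shCtrl-OGDR libraries alone. In the OGD/R comparison of shCtrl cells, 95% of these were called, with 13 unchanged ones. The share called in the other comparisons was not measured. Far fewer genes were changed there than the 63.4% called in the real comparison, so the 13 do not measure false calls in these data. The 95% was not split by fold size, and the share called among genes changed by less than 1 on the log2 scale was not tested. Exon lengths came from GENCODE M21, matched by gene ID. The members and lists were chosen with earlier results of these data known. Beside the 10 genes and Anxa2, the text names, of each list, up to 2 genes per direction with the largest called difference between the lines and a mean of at least 1 CPM, and per member the 3 most alike genes of at least 5 CPM. Genes named outside this rule (list members below the filter and overlapping genes) are named as such. Alternatives were scaling by median-of-ratios, upper quartile or library total, no filter or 1 CPM, DESeq2 1.42.0, limma 3.58.1 voom, the replicate number as a block, only the groups compared, a fold limit and leaving out each library. Python 3.11.15, numpy 2.4.6, pandas 2.3.3 and matplotlib 3.10.9 were used. No batch is named in the labels, and a technical batch running along with the groups cannot be told apart from the groups.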

Additional observations from a re-analysis of the deposited data

Results flagged for a closer look

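The OGD/R change differed between the shAnxa2 and shCtrl lines, by the edgeR test of the difference itself, in 8 of the 10 genes, beside 70% of all genes tested. As the shAnxa2 change minus the shCtrl change on the log2 scale, the values were 1.65 for Myd88, 1.16 for Tlr7 and 0.80 for Cd14. They were -4.64 for Lbp, -0.45 for Unc93b1, -0.36 for Tlr9, -0.34 for Tlr2 and -0.30 for Tlr13. The difference kept its sign and its adjusted p under 0.05 in these 8 genes under each alternative scaling, filter, tool, block and left-out library tried, and 3 of the 8, Myd88, Tlr7 and Lbp, also passed a limit of 1 on the log2 scale. The hypoxia targets also differed in direction between the lines, with 8 of 11 lower in the difference, and their part in these results was not tested.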

How the results depend on the processing

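Of 50 values (10 genes in 5 comparisons), 35 were called, and 34 of these kept their direction and their adjusted p under 0.05 under every alternative other than the fold limit. The exception was Tlr4 with OGD/R in shCtrl cells. Under the fold limit, 6 of the 35 stayed called. Besides Tlr4, the call of Cd14 between untreated lines and that of Tlr4 between the lines after OGD/R were gained under some settings, as given above. The number of genes called was 7 to 8 (OGD/R in shCtrl), 6 (OGD/R in shAnxa2), 5 to 6 (untreated lines), 8 to 9 (lines after OGD/R) and 8 (difference between the lines) when leaving out 1 library at a time, and 1, 1, 0, 1 and 3 with a log2 fold change of at least 1 as well. Some values without a call changed sign. Unc93b1 with OGD/R in shAnxa2 cells was -0.035 under upper-quartile scaling, -0.016 with the library total alone, -0.020 with no filter and -0.00084 with only the groups compared, and Tlr9 between untreated lines was 0.021 under upper-quartile scaling. Leaving out a library moved Unc93b1 with OGD/R in shAnxa2 cells from -0.050 to 0.062, Tlr2 from -0.13 to 0.013 and Tlr9 from -0.11 to 0.044. It moved Tlr13 with OGD/R in shCtrl cells from -0.047 to 0.072, Tlr9 between untreated lines from -0.11 to 0.061, Ly96 after OGD/R from -0.051 to 0.12 and the Tlr4 difference from -0.13 to 0.0066. The cause was not tested. Another scaling moved the median gene by at most 0.072.

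No label says that libraries of the same replicate number share a culture or day. Deviations of same-numbered libraries correlated at -0.051 to 0.135 (18 pairs, 1 over 0.1), which cannot show whether they did. With the replicate number as a block, 8, 6, 5, 8 and 8 of the 10 genes were called in the 5 comparisons, and 0 of the 50 values changed side or direction. Counts of 8 to 77 stand behind Lbp in the shAnxa2 libraries. Ly96, near 5 CPM, had 95% intervals wider than those of the better-counted receptors, and counting error was not separated there from the spread between libraries.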
